A study of Homo sapiens with 35 samples.

Results

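The red cell membrane genes described here are 8 genes chosen by name, SPTB, ANK1, SLC4A1, EPB41, EPB42, GYPB, GYPC and RHAG, out of 19970 protein-coding genes on the autosomes and the X chromosome. For each gene, the peaks over it, within 1 kb of its ends and up to 50 kb beyond them were taken from a list of ATAC-seq peaks. A red cell keeps its shape and elasticity through a net of spectrin and short actin filaments beneath its membrane. Ankyrin ties this net to the anion exchanger, and a second junction ties it to glycophorin C. Inherited defects of several of these proteins cause spherocytosis, elliptocytosis or Rh deficiency, and erythroid promoters of this kind are classically bound by GATA and KLF factors.

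ATAC-seq marks open chromatin by letting a transposase insert sequencing adapters into accessible DNA. All cells came from H1, a long-established line of human embryonic stem cells, and had been turned into blood progenitors in culture. The labels describe 12 libraries of a line named doxee17 with doxycycline, which switches on ectopic MYC, 11 of untreated doxee17 (both batch 1) and 12 of untreated H1 (batch 2). They span 6 sampling days, the first day 10 and the last day 20, with 1 to 3 libraries in each of 18 groups. The labels do not say whether replicates were separate cultures or whether doxee17 is a clone, and the design text counts 44 libraries. The deposited values are 1 master list of 308732 peaks that names no library. Doxycycline-treated and untreated cells were therefore not compared, and the values carry no error between replicates. Every value below is the authors' fold enrichment over background at a peak's summit, the position of highest signal, on GRCh38. Intervals of 95% are exact Poisson intervals on the pileup that each fold implies over a constant background pileup of 93.5, and they cover counting error only. In a pooled list, a peak open in few of the cells and a peak weakly open in many cannot be told apart. Of 7 blood progenitor markers, all had an end under a peak, and so did 7 of 7 erythroid, 4 of 4 endothelial, 4 of 4 macrophage, 2 of 4 mesenchymal and 2 of 3 pluripotency markers (79.6% of all coding genes); COL3A1 and DCN, mesenchymal matrix genes, and POU5F1, a pluripotency factor, had none.

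Together the 8 genes lay under 165 peaks. Of these, 24 (14.5%) reached 20-fold, against 11.99% of all peaks, and 108 (65.5%) lay under 5-fold, against 62.2% of all peaks. ANK1 alone held 62 of the 165 peaks and 13 of the 24. The median peak over the genes stood at 3.18-fold, against 3.46-fold over the whole list. In the map of peaks by locus, the highest peak of the window lies inside the gene for ANK1, EPB41, GYPC and GYPB, and outside it for SPTB, SLC4A1, RHAG and EPB42.

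**Figure D1:**
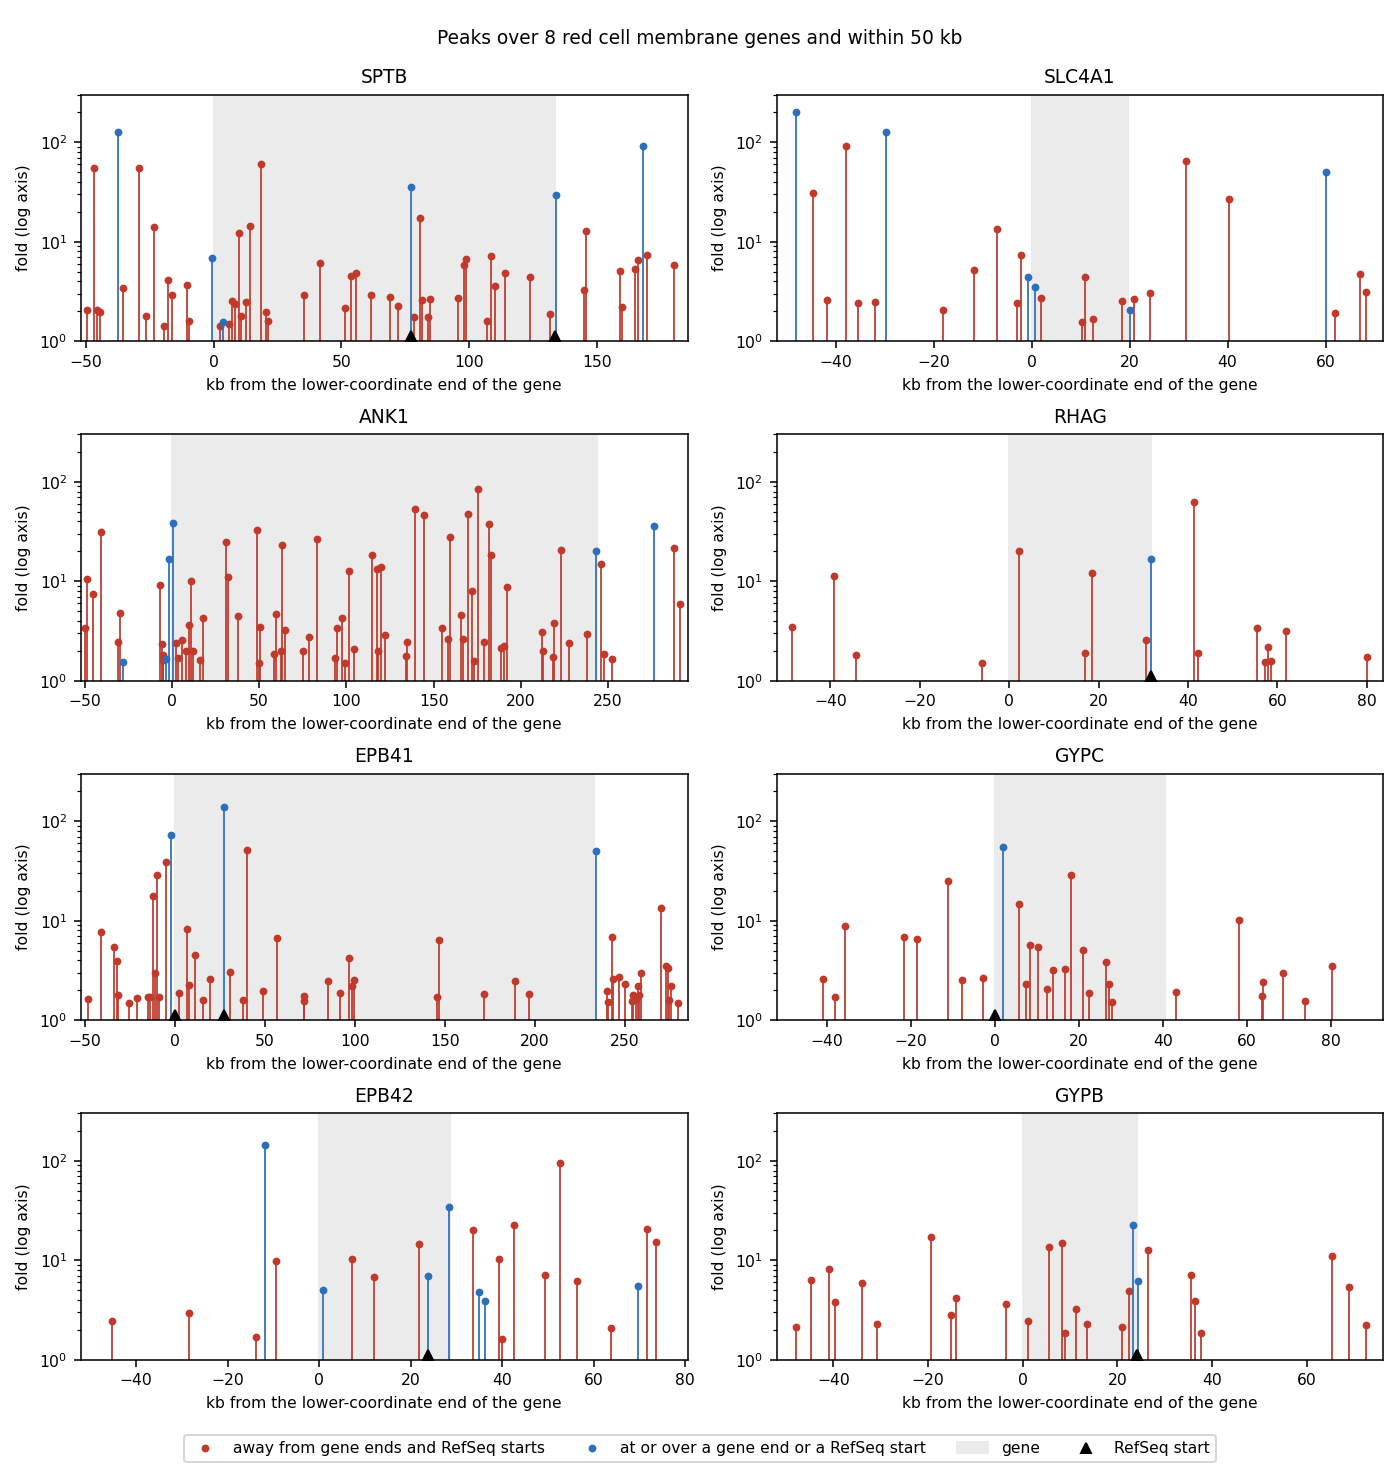
Fold enrichment of every peak (vertical log axis) against the distance of its summit in kb from the lower-coordinate end of each gene (horizontal axis), for 8 genes and 50 kb beyond both ends; grey marks the gene and triangles the RefSeq starts, which were not used for ANK1 and SLC4A1. Red peaks lie away from gene ends and from the RefSeq starts used, and blue peaks at or over them. No peak over SLC4A1 exceeded 4.39-fold, while ANK1 held peaks of up to 84.0-fold.

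The ends of these genes were open but not strongly so. A summit within 1 kb of an end was found for 6 of 8 genes, against 83.0% of all coding genes, and none of the 8 exceeded the all-gene median of 43.5-fold, which 50.0% of coding genes exceed. The median over the 8 genes was 19.7-fold, taking 0 for a gene without such a summit. ANK1, whose ankyrin links spectrin to the anion exchanger, stood highest at 38.2-fold, at its lower-coordinate end and on the 48.3rd percentile of all coding genes. EPB42, which encodes a protein that steadies the link between ankyrin and the anion exchanger, followed at 34.3-fold, and SPTB, the beta chain of erythroid spectrin, at 29.2-fold. The intervals of these 3 peaks did not overlap (36.9 to 39.4, 33.1 to 35.5 and 28.2 to 30.3). The order of the genes depends on the window. With 0.5 kb windows, ANK1 and SPTB had no summit at an end, while EPB42 kept 34.3-fold. GYPB, a sialic acid-rich glycoprotein that carries the S blood group antigen, reached 22.5-fold, and RHAG, the Rh-associated glycoprotein needed for Rh antigens at the surface, 16.8-fold. SLC4A1, the chloride and bicarbonate exchanger, reached 4.45-fold (26.6th percentile), also at its lower-coordinate end. At the higher-coordinate end, ANK1 had 20.03-fold and SLC4A1 2.07-fold. No strand was read for ANK1 and SLC4A1, so which of their ends is the start is not given here.

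EPB41 and GYPC had no summit within 1 kb of an end, yet each had an end under a wide peak. EPB41 joins spectrin to actin and to glycophorin C, the product of GYPC. A 5371 bp peak of 73.5-fold (chromosome 1, 28883305 to 28888675) covered the upstream end of EPB41, with its summit 1.95 kb before it. A 5614 bp peak of 54.8-fold (chromosome 2, 126654971 to 126660584) covered the start of GYPC, with its summit 1.87 kb inside the gene. Counting the peak that covers an end, a choice made after the data were seen, 7 of 8 genes had one, against 79.6% of coding genes. On that count, EPB41 and GYPC stood above the all-gene median of 52.3-fold and the other 6 did not. SLC4A1 was the gene with neither end under a peak.

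**Figure D2:**
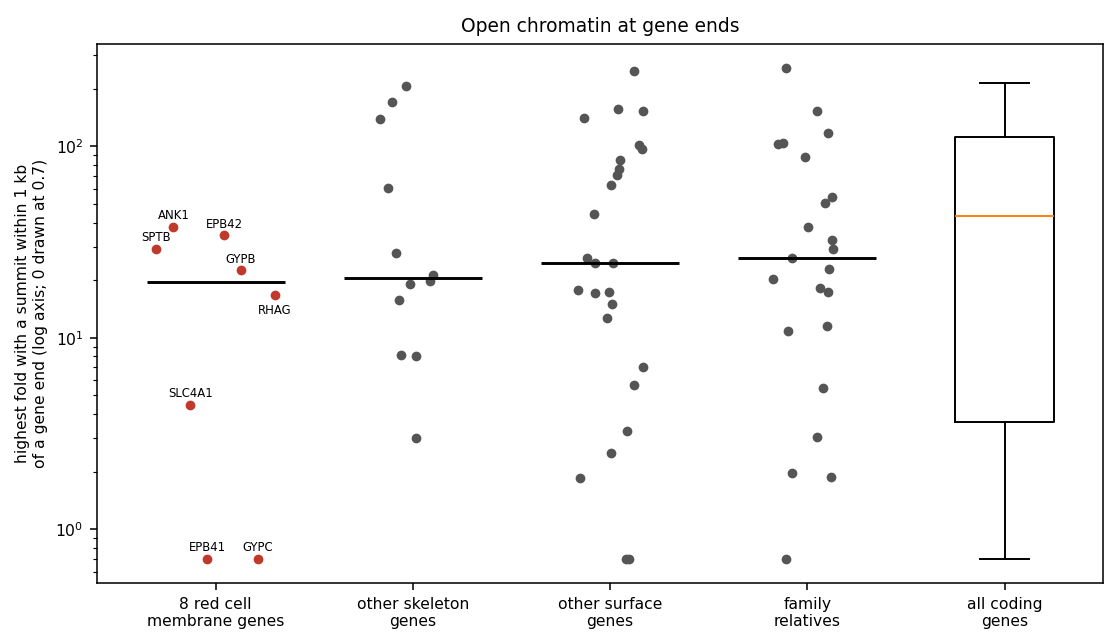
Highest fold of a peak with its summit within 1 kb of a gene end (log axis, 0 drawn at 0.7) for the 8 red cell membrane genes, 12 other skeleton genes, 26 other surface genes and 23 family relatives, with black lines at the medians, beside a box of all coding genes (median and quartiles, whiskers at the 5th and 95th percentiles). The 8 genes lie between 0 and 38.2-fold, below the all-gene median of 43.5-fold.

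Other genes of the red cell membrane had similar medians at their ends. Among 12 other skeleton and lipid raft genes, all 12 had a summit there, 4 exceeded the all-gene median and the median was 20.6-fold. STOM, a raft protein lost from the membrane in some stomatocytoses, reached 208-fold, FLOT1, a raft scaffold, 170-fold, and ADD1, an adducin that caps actin, 139-fold. Among 26 other surface and transport proteins, 24 had a summit, 11 exceeded the median of all genes and the median was 24.6-fold. CD55, which restrains complement, reached 249-fold, ERMAP, which carries the Scianna blood group, 158-fold, and RHCE, which carries Rh antigens, 153-fold; ICAM4 and BSG had no summit at an end but an end under peaks of 124-fold and 112-fold. Among 23 relatives in the same families, 22 had a summit, 8 exceeded the median of all genes and the median was 26.3-fold. SLC4A2, the widely expressed anion exchanger, reached 256-fold, against 4.45-fold for SLC4A1, and SLC4A3 118-fold, while EPB41L1 had no summit at an end. RHD and RHCE belong to both of the last lists, and RHCE held only 17.3-fold within 1 kb of its RefSeq start. SLC4A3 had no summit within 1 kb of its RefSeq start, and the highest peak covering one of its ends reached 8.60-fold.

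Peaks were also set against annotated transcript starts. RefSeq start windows matched 6 of the 8 genes, with 9 starts, and all 9 lay under a peak, against 79.6% of 22131 starts of coding genes. A summit within 1 kb was found for 7 of 9 starts, against 77.8% of all starts, and 1 of the 9 exceeded the median over all starts of 39.0-fold (50.0% of starts do). That start was the downstream one of EPB41 (chromosome 1, 28914569), under a 138-fold peak with its summit 144 bp before it, on the 82.5th percentile of starts. At SPTB, the downstream start (chromosome 14, 64823380) lay under a 35.7-fold peak with its summit 83 bp before it. The upstream start (64879907) lay under a 29.2-fold peak with its summit 564 bp before it. RHAG had its 16.8-fold summit 5 bp before the start (chromosome 6, 49636839). EPB42 was weaker at its listed start (chromosome 15, 43221018), where a summit of 7.004-fold lay 39 bp before it, than at its upstream gene end, where the 34.3-fold peak lay. The 2 starts of GYPB (chromosome 4, 144019345 and 144019380) shared a 6.16-fold peak, and the 22.5-fold peak lay 0.948 kb inside the gene.

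The sequence before these starts is shown because GATA words recurred there. Each line gives the 250 bases before a start from RefSeq, build GRCh38.p14, read toward the gene, with capitals marking CACCC and the GATA words, each on either strand. The GATA words searched were AGATAA and then AGATAG, together with TGATAA and lastly TGATAG. No capital word overlaps another, although a word searched without capitals can (a CAGCTG shares bases with a GATA word of GYPB, a CCAAT with a CACCC of RHAG and a GGGCGG with a CACCC of GYPC).
SPTB upstream start (chr14:64879908-64880157, minus strand): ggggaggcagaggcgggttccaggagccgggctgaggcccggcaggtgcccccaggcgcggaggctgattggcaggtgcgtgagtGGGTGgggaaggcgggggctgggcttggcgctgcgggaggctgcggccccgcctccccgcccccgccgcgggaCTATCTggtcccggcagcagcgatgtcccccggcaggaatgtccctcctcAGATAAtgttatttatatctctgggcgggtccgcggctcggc
EPB42 start (chr15:43221019-43221268, minus strand): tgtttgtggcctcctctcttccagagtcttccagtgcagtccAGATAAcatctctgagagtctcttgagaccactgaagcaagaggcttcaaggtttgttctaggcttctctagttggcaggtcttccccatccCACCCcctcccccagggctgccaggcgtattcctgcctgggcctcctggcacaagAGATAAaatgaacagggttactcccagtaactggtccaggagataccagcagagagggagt
RHAG start (chr6:49636840-49637089, minus strand): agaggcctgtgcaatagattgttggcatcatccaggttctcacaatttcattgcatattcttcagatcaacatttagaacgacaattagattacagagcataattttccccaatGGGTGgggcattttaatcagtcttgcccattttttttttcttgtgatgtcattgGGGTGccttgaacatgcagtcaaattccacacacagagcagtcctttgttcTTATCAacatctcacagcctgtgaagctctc
GYPC start (chr2:126655908-126656157, plus strand): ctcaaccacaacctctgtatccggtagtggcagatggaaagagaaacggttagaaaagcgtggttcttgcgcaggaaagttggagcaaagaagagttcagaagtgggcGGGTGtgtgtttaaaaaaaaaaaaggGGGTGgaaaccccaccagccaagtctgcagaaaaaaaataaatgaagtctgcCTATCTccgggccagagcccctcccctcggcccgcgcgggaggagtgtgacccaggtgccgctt
GYPB downstream start (chr4:144019346-144019595, minus strand): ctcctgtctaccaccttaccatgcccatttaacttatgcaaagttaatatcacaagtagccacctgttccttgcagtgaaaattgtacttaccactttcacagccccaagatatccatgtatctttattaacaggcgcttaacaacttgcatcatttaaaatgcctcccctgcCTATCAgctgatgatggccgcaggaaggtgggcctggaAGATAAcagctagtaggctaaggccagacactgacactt
EPB41 downstream start (chr1:28914319-28914568, plus strand): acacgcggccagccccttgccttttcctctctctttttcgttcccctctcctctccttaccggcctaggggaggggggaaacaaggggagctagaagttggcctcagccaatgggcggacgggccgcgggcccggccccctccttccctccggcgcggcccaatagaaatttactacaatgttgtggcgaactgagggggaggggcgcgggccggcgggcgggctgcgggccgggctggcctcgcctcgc

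A GATA word stood in 7 of the 9 windows, against 17.8% of 22131 windows of coding genes. Each of the 6 genes had one before at least 1 start, but SPTB, EPB41 and GYPB have 2 windows each. The share of all genes with a GATA word before at least 1 start was not computed. In the last 100 bases before the start, a window chosen after the words were seen, 6 of the 9 held a GATA word, against 6.43% of all windows. RHAG has a TGATAA on the reverse strand from 31 to 26 bases before its start, and SPTB an AGATAA from 42 to 37 bases before its upstream start. The 2 GYPB windows overlap and share words. GATA words were more frequent in windows of low GC content. Among windows under 55% GC, 37.9% held a GATA word, and so did 5 of the 5 windows of EPB42, GYPB, GYPC and RHAG. At 55% GC or more, 8.93% did, and so did 2 of the 4 windows of SPTB and EPB41. The downstream starts of SPTB and EPB41 held none, and their peaks (35.7 and 138-fold) were the highest of those with a summit within 1 kb. The upstream EPB41 start and the GYPC start held a GATA word and had no summit within 1 kb. The peaks covering them reached 73.5 and 54.8-fold.

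CACCC, the core of KLF sites, stood in 6 of 9 windows, against 58.4% of all windows, and was missing from both EPB41 windows and the downstream GYPB window. The E-box words CAGCTG or CAGATG stood in 4 of 9 windows (22.2% of all windows), CCAAT in 4 of 9 (32.7%), GGGCGG in 5 of 9 (53.7%) and TATAAA in 1 of 9 (9.0%). CACGTG, the E-box that MYC binds best, stood in 0 of 9, against 7.37% of all windows. A match is a description of these letters, not a bound site. RHAG and the GYPB windows were poor in GC (40.8% and 44.8%, against a median of 62.0% over all windows), with 1 and 2 CG dinucleotides against a median of 16. SPTB at its upstream start (72.0% GC) and EPB41 at its downstream start (68.4%) held 22 CG each.

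**Figure D3:**
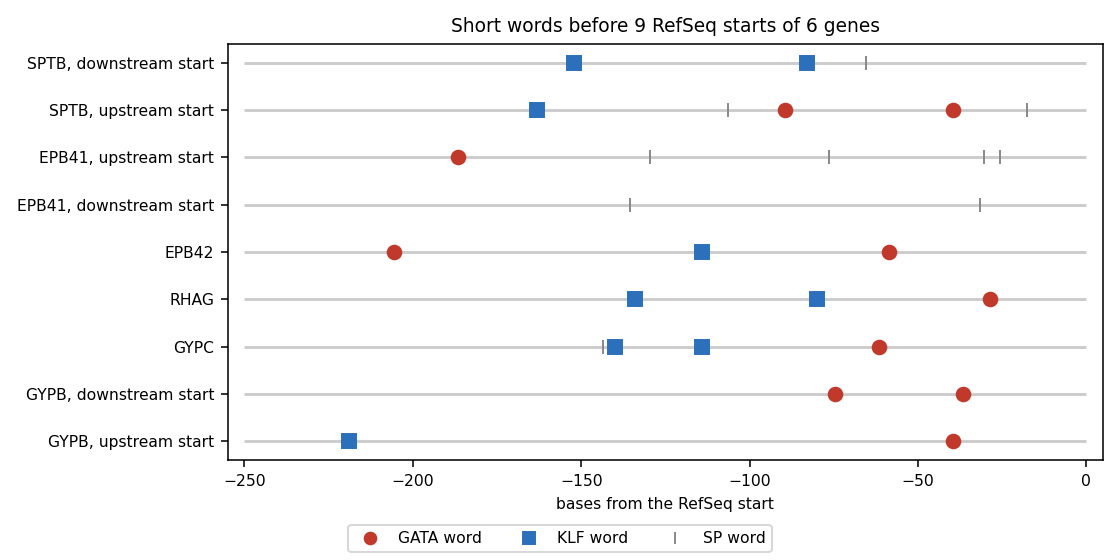
Positions of short words on either strand in the 250 bases before 9 RefSeq starts of 6 genes (horizontal axis, bases from the start), with 1 line per start. GATA words (red circles) stand on 7 of the 9 lines, KLF words (CACCC, blue squares) on 6 and SP words (GGGCGG, grey bars) on 5.

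Inside the genes, peaks were denser than over most coding genes. The 8 genes had a median of 2.58 summits per 10 kb, against 1.45 over all coding genes, and 6 of 8 exceeded that value (50.0% of coding genes do). Peaks covered a median of 17.8% of their length, against 12.6%, and again 6 of 8 exceeded the median of all genes (50.0% of coding genes do). GYPC was the most covered (36.5%, 81.3rd percentile), then GYPB (22.4%), ANK1 (19.1%), SPTB (18.8%), SLC4A1 (16.9%), EPB42 (13.0%), RHAG (9.54%) and EPB41 (7.41%). The 12 other skeleton genes were covered over a median of 35.1% of their length, the 26 surface genes over 24.2% and the 23 relatives over 14.2%. In 5 of 8 genes the highest peak lay inside the gene and over 1 kb from its ends, against 31.4% of 18345 coding genes with a peak at an end or inside. Those 5 were SPTB, ANK1, EPB41, GYPC and RHAG, of which the EPB41 peak lies at an internal start and the GYPC peak reaches over the start. The 8 genes had a median length of 36.1 kb, against 24.2 kb over all coding genes, and the part of length in these counts was not tested.

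ANK1 (chromosome 8, 41653225 to 41896741) held the most. Of its 62 peaks, 13 reached 20-fold, 11 of them inside and over 1 kb from the ends. Inside the gene, 6 of them lay within 43.4 kb, 17.8% of its length, at 27.6 to 84.0-fold. The highest of these (41827440 to 41829378) reached 84.0-fold (95% interval 82.1 to 85.8), above the 20.03-fold peak at the higher-coordinate end and the 38.2-fold peak at the other end. Peaks of 53.5, 46.3, 47.7 and 37.6-fold stood beside it, and the 46.3-fold peak was the widest over the gene (3707 bp). The RefSeq starts inside ANK1 were not used here, so these peaks could not be split into starts and other sites.

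SPTB (chromosome 14, 64746283 to 64879907) lay under 37 peaks, and 3 of them reached 20-fold. Besides those at its 2 starts, a 3972 bp peak of 60.5-fold (64761600 to 64765571) lay 18.6 kb inside the 3′ end, 14615 bp from the nearest end of PLEKHG3, a neighbouring gene. A 17.4-fold peak stood 3.62 kb before the downstream start. Outside SPTB, the highest peak of the window was a 7226 bp peak of 128.7-fold over an end of PLEKHG3 (64702504 to 64709729). A 55.3-fold peak lay inside PLEKHG3, a 55.01-fold peak beyond it outside coding genes and a 91.8-fold peak at the end of CHURC1.

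EPB41 (chromosome 1, 28887100 to 29120041) had its highest peaks at the 5′ end. From 15 kb before the gene to 45 kb inside it, 6 peaks reached 15-fold. They were 17.8, 29.2, 39.5 and 73.5-fold before the upstream start, then 138-fold at the downstream start and 51.7-fold 12.5 kb beyond that. These bounds and the 15-fold limit were set for this gene alone, with its peaks known. Over the remaining 188 kb of the gene there were 14 peaks, none above 6.76-fold, and a stretch of 46.3 kb with no peak. Just past the 3′ end, at 1.38 kb, lay the summit of a 6031 bp peak of 50.5-fold (29120298 to 29126328), which covers an end of the neighbouring gene TMEM200B.

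GYPC (chromosome 2, 126656158 to 126696667) also had its strongest peak at its 5′ end. After the 54.8-fold peak at its start, a 14.7-fold peak followed at once and a 28.9-fold peak lay 18.1 kb inside the gene. The last 12.5 kb of the gene held no peak. A 25.4-fold peak lay 11.1 kb before the start.

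RHAG (chromosome 6, 49605175 to 49636839) was sparse, with 5 peaks over the gene and 17 summits in all within 50 kb of it. Its strongest neighbour lay outside the gene: a 1240 bp peak of 62.4-fold (49645805 to 49647044, 95% interval 60.8 to 64.0), 9.64 kb before the start, outside coding genes. The start itself reached 16.8-fold (16.02 to 17.7). A 20.1-fold peak lay 2.11 kb inside the 3′ end and a 12.1-fold peak 13.2 kb from the start. The next peaks in the window were 11.2-fold and 3.46-fold.

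SLC4A1 (chromosome 17, 44248390 to 44268135) had only weak peaks over the gene itself. Its 6 peaks over the gene ran from 1.56 to 4.39-fold, and the 3 summits within 1 kb of its ends from 2.07 to 4.45-fold. Beyond its higher-coordinate end, a 64.7-fold peak (44279370 to 44280808, 95% interval 63.1 to 66.4) lay at 11.8 kb and a 26.7-fold peak at 20.5 kb. Both lay between the coding genes SLC4A1 and RUNDC3A, and noncoding genes were not looked at. On the other side, a 13.5-fold peak lay 7.10 kb beyond the gene, and peaks of 92.7 and 126-fold lay over UBTF, which encodes a factor of ribosomal RNA transcription, and 203-fold at the end of ATXN7L3. The nearest coding gene end to the 64.7-fold peak was that of SLC4A1.

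EPB42 (chromosome 15, 43197227 to 43225737) had 6 peaks over the gene, of 4.98 to 34.3-fold, and 8 of the 24 summits in its window (33.3%) lay under 5-fold. Before its upstream end, peaks of 20.3-fold at 5.10 kb, 22.4-fold at 14.2 kb and 94.9-fold at 24.1 kb followed one another, the last (43248502 to 43252361, 3860 bp) inside TGM5, a transglutaminase gene of the same family. TGM5 itself reached 5.48-fold within 1 kb of its ends, and the nearer of them lay 17120 bp from that peak. On the far side, a 146-fold peak covered an end of both TMEM62 and CCNDBP1.

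Distal peaks, with summits over 1 kb from every coding gene end, were counted inside each gene and 50 kb beyond. The 8 genes had a median of 19.7 per 100 kb, against 14.02 over all coding genes, and 6 of 8 exceeded that value (50.0% of coding genes do). The medians were 22.8 per 100 kb for the other skeleton genes, 19.9 for the surface genes and 14.9 for the relatives. SPTB had 23.97 per 100 kb (87.4th percentile), ANK1 21.8, GYPC 20.6, GYPB 20.1, SLC4A1 19.2, EPB41 17.4, EPB42 14.01 and RHAG 12.2 (41.2nd percentile). A distal peak of at least 20-fold was found for 7 of 8 genes, against 76.9% of coding genes, GYPB being the exception at 17.1-fold. Leaving out peaks near RefSeq starts or over gene ends, a choice made after the data were seen, the highest remaining peak reached 50-fold for 6 of 8 genes, against 34.7% of coding genes. The starts of ANK1 and SLC4A1 themselves were not used, so the ANK1 peak among these is known only to lie away from gene ends. The starts used covered 15811 of the 19970 coding genes, with none on chromosome 8, where ANK1 lies. Starts of the remaining genes, neighbours included, were not left out of either count. The values were 94.9-fold for EPB42, 92.7 for SLC4A1, 84.0 for ANK1, 62.4 for RHAG, 60.5 for SPTB and 51.7 for EPB41, with GYPC at 28.9 and GYPB at 17.1, against an all-gene median of 36.2-fold. A longer gene has a longer window, and the median length over all coding genes was 24.2 kb. SPTB, ANK1 and EPB41 are 134, 244 and 233 kb long, while EPB42, SLC4A1 and RHAG are 28.5, 19.7 and 31.7 kb. The part of length in these values was not tested. Neighbouring genes lie in these windows, and the list does not tell which gene a peak serves.

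**Figure D4:**
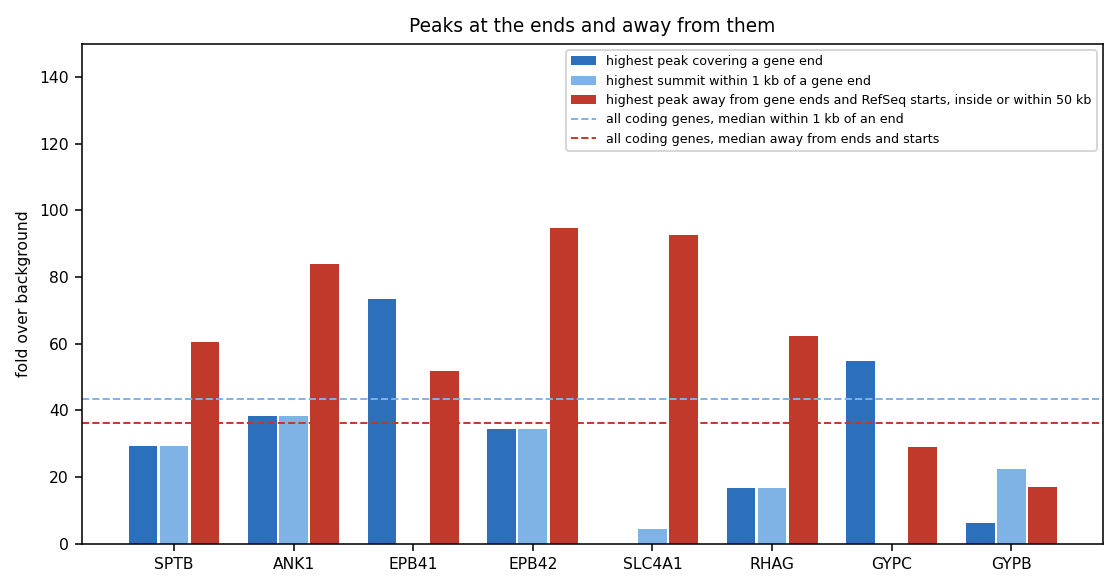
Fold over background (vertical axis) for each of the 8 genes, at the highest peak covering a gene end, at the highest summit within 1 kb of an end, and at the highest peak away from gene ends and from the RefSeq starts used, inside the gene or within 50 kb; the starts of ANK1 and SLC4A1 were not used. Dashed lines give the all-gene medians of 43.5 and 36.2-fold; EPB42, SLC4A1, ANK1, RHAG and SPTB have red bars above both blue ones.

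GYPB (chromosome 4, 143995188 to 144019380) has a near-identical neighbour, GYPE, so its values are uncertain. Over 294 aligned bases at their starts, GYPB and GYPE match at 287 (97.6%). How reads that match several places were treated is not given in the sources used here. Just before the start, GYPB had a 6.16-fold peak and GYPE a 7.91-fold peak. Just inside, GYPB had a 22.5-fold peak at 0.948 kb and GYPE a 17.2-fold peak at 0.884 kb. Further inside GYPB, peaks of 13.5 and 14.9-fold lay 18.7 and 15.9 kb from the upper gene end. Outside it, none exceeded 17.1-fold within 50 kb, and no summit in that window lay inside another coding gene. Among the 8 genes, GYPB was on the lowest percentile for its highest distal peak (19.2nd).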

How the data were processed

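Libraries of 50000 nuclei were transposed for 45 minutes and read as pairs of 75 nucleotides, per the labels' protocols. Per the submitters' processing notes, the tools included Picard 2.2.4, Bowtie2 2.2.8 and Trim Galore 0.6.5, with hg38 and GRCh38.p13 as builds. The deposited peak names carry MACS 2.1.0 and GENCODE 36. The order of steps, duplicate and multi-mapping filters, any read shift and the libraries pooled are not given in the sources used here. The authors' list gives each peak a score, a −log10 p-value and a fold enrichment, which is a ratio to background, beside the summit's offset within the peak. The deposited folds imply whole pileups (within 0.1) for 100% of 243585 peaks under 1000 over a constant background of 93.5. Depth per library is unknown.

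Gene ends were read from RefSeq annotation of GRCh38.p14, and starts, strands and sequences from a RefSeq table of 250 bases before each start, which matched 6 of the 8 genes. Exons and introns were not told apart. A peak lies at an end if its summit is within 1 kb. A percentile is the share of coding genes (or starts) with a lower value, tied values taken at their middle rank. No test was run: values stand beside those of all coding genes. Members and lists were chosen with earlier results of these data known. The text names all 8 members, the 3 highest genes of each list and up to 3 without a summit at an end. The cluster inside ANK1 and the bounds and fold limit used at EPB41 were added after their values were seen. RefSeq starts as ends, peaks that cover an end, peaks away from starts and the 100-base window were added after seeing the data. Counting was tested on simulated data. Python 3.11.15, numpy 2.4.6, pandas 2.3.3, scipy 1.17.1 and matplotlib 3.10.9 were used.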

Additional observations from a re-analysis of the deposited data

How the results depend on the processing

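No paired analysis was possible because the list has no value per library. No test was run. The number of the 8 genes above the all-gene median at an end was 1 with 0.5 kb windows, 1 with 2.5 kb windows, 1 with any overlap of the window, 1 with RefSeq starts counted as ends and 2 with only peaks that cover the end; it stayed at 0 with the more significant 50% of the peaks. The median fold at an end was 1.04 with 0.5 kb windows, 31.8 with 2.5 kb windows, with any overlap and with peaks that cover the end, and 28.4 with RefSeq starts, each below the median of all genes under that setting (27.9, 55.4, 56.2, 52.3 and 52.5). With the more significant 50% of the peaks, distal peaks fell to 9.68 per 100 kb (6.66 over all genes), the covered share to 11.9% (8.90%) and summits to 1.14 per 10 kb (0.650). With 1 kb added on each side, the covered share was 19.7% (14.5%). The number of genes with a summit at an end ran from 4 with 0.5 kb windows (72.6% of all coding genes) to 8. It was 8 with 2.5 kb windows (90.5%) and with any overlap (87.6%). A distal peak of at least 20-fold was found for 8 genes within 100 kb (86.4% of all coding genes). Under every other setting it was found for 7 (61.4% to 80.3%). The cause of these shifts was not tested. Pooling limits the list: depth per library, day or treatment is unknown.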
